A study of Mus musculus with 6 samples.

Results

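Macrophage iron handling was described through the transcripts of 10 genes, Tfrc, Slc11a2, Steap3, Slc11a1, Hmox1, Fth1, Ftl1, Slc40a1, Cp and Ireb2. They were taken by symbol from the 52550 genes of the deposited count table, and all 10 were among the 16402 genes with enough reads to be tested. The libraries were 3 from MSR1 KO and 3 from MSR1 WT bone marrow-derived macrophages, all of strain C57BL/6. MSR1 KO mice lack macrophage scavenger receptor 1, a surface receptor that binds modified lipoproteins, and the study asked how its loss changes macrophages that are kept with bone marrow stem cells (BMSCs). Marrow of both genotypes was freed of red cells and grown for 7 days with M-CSF, the growth factor of macrophages, at 25 ng/ml, and the macrophages then shared medium with BMSCs across a transwell membrane for 48 h before RNA-seq. No library of either genotype was kept without M-CSF or without BMSCs, and the ages of the mice and the animals behind each library were not given in the labels.

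Macrophages recycle the iron of old red cells and also take iron from the blood. Transferrin-bound iron enters through the transferrin receptor, is reduced in the endosome and crosses into the cytosol, whereas heme iron from engulfed cells is freed by heme oxygenase. Iron that is not used is stored in ferritin or leaves through ferroportin, the only known exporter of iron ions. Iron-regulatory proteins bind a hairpin, the iron-responsive element, in the untranslated regions (UTRs) of several of these transcripts when iron is low. Binding near the start of a transcript blocks its translation, and binding near the end protects it from decay.

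This hairpin was sought through its core in the mouse transcripts of GENCODE M21 (build GRCm38). The core was an unpaired C, 5 paired bases, the loop CAGTGN and the 5 bases that pair back, with G:T pairs allowed. The search held matches in the UTRs of 4 of the 10 genes, Fth1, Ftl1, Slc40a1 and Tfrc, and in 160 of 21877 protein-coding genes in all (0.731%). None of 59 other genes of iron and heme held a match. For any gene without a match, members included, this says only that these letters are not in those windows. A hairpin with an unpaired base within this stem would be missed, so the matches of a gene may not be all of its hairpins. Each site is printed below from 5′ to 3′ on the strand of its gene, with the unpaired C and the loop in capitals. The 3 matches near the start of a transcript lie in 5′ UTRs, at chr19:9982732-9982760 (plus strand) for Fth1, chr7:45459779-45459807 (minus strand) for Ftl1 and chr1:45925465-45925493 (minus strand) for Slc40a1. The 4 matches of Tfrc lie in its 3′ UTR on the plus strand of chromosome 16, at 32631219-32631247, 32631598-32631626, 32631663-32631691 and 32631710-32631738.
Fth1 5′ UTR: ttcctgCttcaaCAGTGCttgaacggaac
Ftl1 5′ UTR: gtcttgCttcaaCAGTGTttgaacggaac
Slc40a1 5′ UTR: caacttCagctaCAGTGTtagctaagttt
Tfrc 3′ UTR, the first: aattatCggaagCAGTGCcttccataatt
Tfrc 3′ UTR, the second: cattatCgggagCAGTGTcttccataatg
Tfrc 3′ UTR, the third: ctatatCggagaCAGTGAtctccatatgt
Tfrc 3′ UTR, the last: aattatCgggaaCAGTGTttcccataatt

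Total counts were 36143518 to 47417448 per library. In CPM (counts scaled to a common library size by TMM), Msr1 itself averaged 49.3 ± 8.51 (SD, n = 3) in MSR1 KO and 200 ± 20.9 in MSR1 WT macrophages, a log2 fold change (MSR1 KO minus MSR1 WT) of −2.02 with an adjusted p of 0.00124 by edgeR's quasi-likelihood test with Benjamini-Hochberg adjustment. Which part of Msr1 was deleted was not given, so the remaining reads were not resolved further. The summed CPM of 9 macrophage markers was 22885 to 23980 in MSR1 KO and 23117 to 25679 in MSR1 WT libraries, and 1 of the 9, Fcgr1, passed the edgeR test (higher). Of other cell types, 16 stromal markers summed to 1226 to 1608 CPM in MSR1 KO and 1555 to 1968 CPM in MSR1 WT libraries. Bglap was at 0, and 3 (Pdgfra, Pdgfrb and Cxcl12) were lower by the same test. The log2 fold change was below 0 for 10 of the 15 tested stromal markers and above 0 for 5. All MSR1 KO libraries lay below all MSR1 WT libraries for 5 of the 15. The reverse held for 2, Thy1 (log2 fold change 1.31, adjusted p 0.0907 by edgeR) and Eng (0.47, adjusted p 0.119 by edgeR). The 7 neutrophil markers summed to 474 to 787 and 317 to 617 CPM, and the 4 B cell markers to 19.0 to 22.5 and 15.3 to 19.98 CPM. The 9 erythroid markers summed to 1.13 to 2.82 and 2.00 to 3.44 CPM, with Hbb-bs, Hbb-bt and Slc4a1 at 0 in every library. In these bulk samples, fewer cells of a type and less RNA per cell cannot be told apart.

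Most of the 10 iron-handling transcripts lay lower in MSR1 KO than in MSR1 WT macrophages, but by small amounts. By edgeR's quasi-likelihood test, 0 of the 10 passed an adjusted p of 0.05, whereas 4.91% of all tested genes did. At an unadjusted p of 0.05, 4 of the 10 passed (Tfrc, Steap3, Hmox1 and Ftl1), all lower in MSR1 KO macrophages, beside 18.9% of all genes in either direction. None reached the study's definition of a differentially expressed gene (DEG), more than a 1.5-fold change at an unadjusted p below 0.05, which 8.64% of all genes met. In 3 of the 10 (Slc11a2, Steap3 and Ftl1), all MSR1 KO libraries lay below all MSR1 WT libraries, and 25.5% of all genes had groups that did not overlap in either direction. The log2 fold change was below 0 for 7 of the 10, beside 50.4% of all genes, and its median over the 10 was −0.20, beside −0.0023 over all genes. DESeq2's Wald test, run as an alternative, called 1 of the 10, Steap3, at an adjusted p of 0.05, and 9.95% of the 15754 genes to which it gave an adjusted p.

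**Figure D1:**
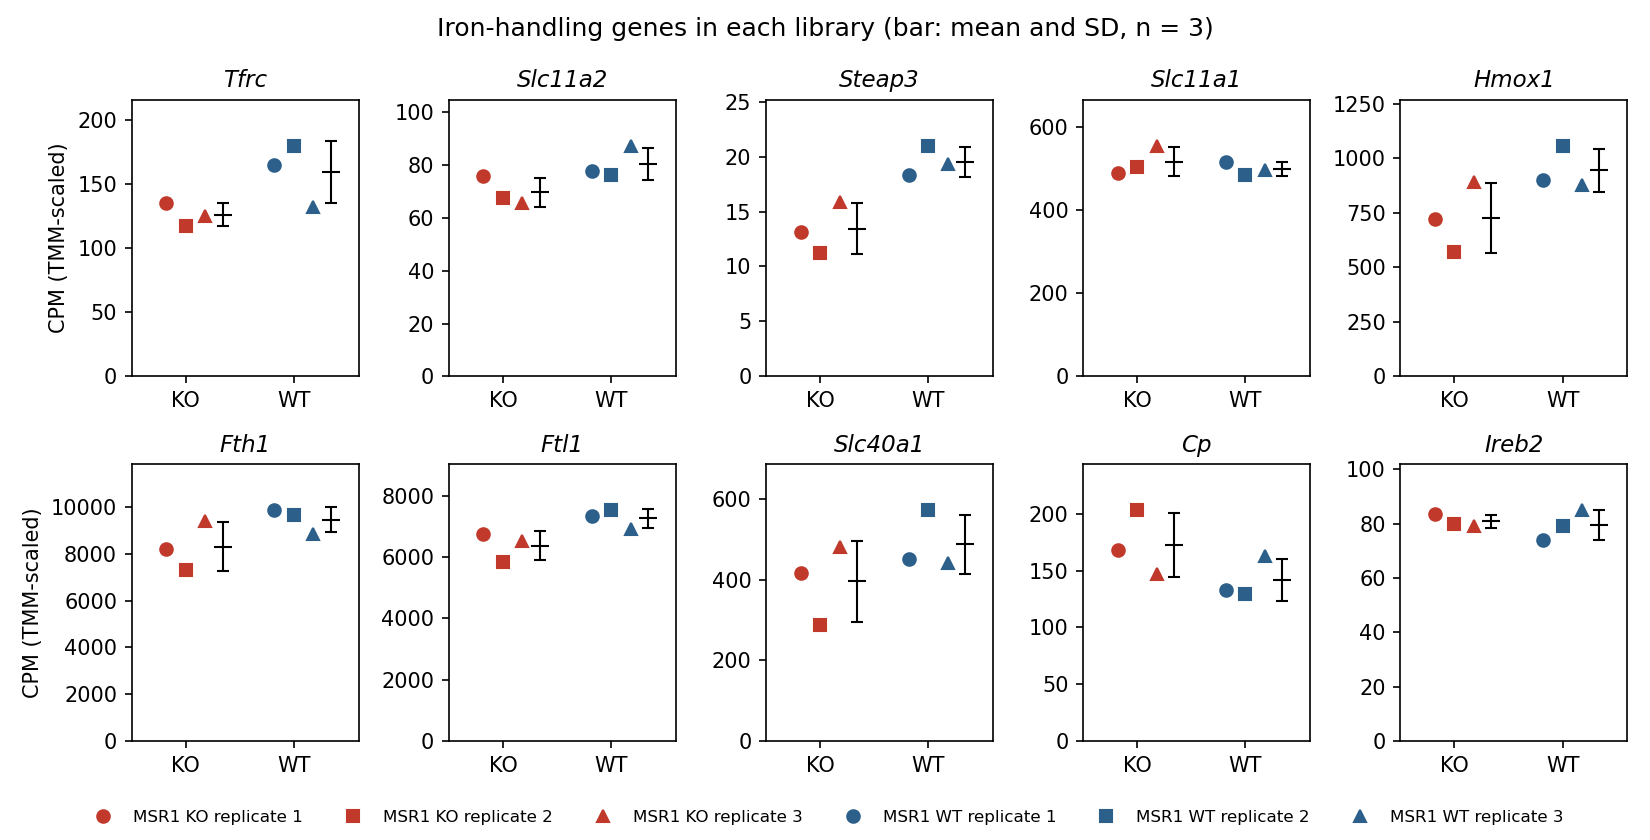
CPM (TMM-scaled, y axis from 0) of the 10 iron-handling genes in each MSR1 KO and MSR1 WT library, with bars for the mean and SD of 3 libraries. For Slc11a2, Steap3 and Ftl1 the MSR1 KO points all lie below the MSR1 WT points, and for the other 7 genes the groups overlap.

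Iron uptake was followed through the transferrin receptor and its endosomal partners. Tfrc (chr16:32608920-32632794), which encodes the transferrin receptor, stood at 135, 117 and 125 CPM in MSR1 KO libraries 1 to 3 and at 165, 180 and 132 CPM in MSR1 WT libraries 1 to 3. The groups overlapped only through MSR1 KO replicate 1 and MSR1 WT replicate 3, which was the lowest of its group. The means were 126 ± 8.96 and 159 ± 24.3 CPM (SD, n = 3), and the log2 fold change of −0.34 (SE 0.117, 95% interval −0.61 to −0.07) had an adjusted p of 0.159 by edgeR's quasi-likelihood test with Benjamini-Hochberg adjustment. Leaving out MSR1 WT replicate 3 moved it to −0.45 with an adjusted p of 0.037 by edgeR. The transcript with 4 matches to the iron-responsive element in its 3′ UTR was thus called or not according to 1 library.

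Slc11a2 (chr15:100387898-100425072) encodes DMT1, which carries the iron out of the endosome. Its levels were 76.0, 67.5 and 65.7 CPM in MSR1 KO and 77.8, 76.4 and 87.4 CPM in MSR1 WT macrophages. All MSR1 KO libraries lay below all MSR1 WT libraries, although MSR1 KO replicate 1 did so by less than 1 CPM. The log2 fold change was −0.21 (SE 0.090) with an adjusted p of 0.265 by edgeR. Steap3 (chr1:120190757-120272705) encodes the reductase that readies endosomal iron for that step, and it had the smallest p of the 10. It stood at 13.1, 11.3 and 15.9 CPM in MSR1 KO and at 18.3, 21.0 and 19.3 CPM in MSR1 WT libraries, so the MSR1 KO mean of 13.4 ± 2.34 CPM was 68.8% of the MSR1 WT mean of 19.5 ± 1.36 CPM. Its log2 fold change was −0.54 (SE 0.143, 95% interval −0.87 to −0.21) with an adjusted p of 0.0768 by edgeR and of 0.0141 by DESeq2. Without MSR1 KO replicate 3 the log2 fold change was −0.68 and the DEG definition was met, with an adjusted p of 0.0575 by edgeR.

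Slc11a1 and Hmox1 represent the handling of engulfed material. Slc11a1 (chr1:74375195-74386062) encodes NRAMP1, which moves metal ions out of the phagosome, and C57BL/6 mice are known to carry an allele whose protein does not work. Its transcript was at 489, 504 and 555 CPM in MSR1 KO and at 516, 483 and 496 CPM in MSR1 WT libraries. The groups overlapped, and the log2 fold change was 0.05 with a 95% interval of −0.11 to 0.21 and an adjusted p of 0.767 by edgeR. Hmox1 (chr8:75093621-75100589) encodes the inducible heme oxygenase, which opens heme and frees its iron. It stood at 722, 570 and 890 CPM in MSR1 KO and at 899, 1058 and 879 CPM in MSR1 WT libraries. MSR1 KO replicate 3 lay among the MSR1 WT libraries, and the other two lay below all of them. The means were 728 ± 160 and 945 ± 98.1 CPM, and the log2 fold change of −0.38 (SE 0.153, 95% interval −0.73 to −0.03) had an adjusted p of 0.226 by edgeR.

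The ferritin genes were the highest of the 10 per length of transcript. Fth1 (chr19:9982703-9985092) encodes the heavy chain, which oxidizes iron as it enters the ferritin shell. Its levels were 8213, 7303 and 9389 CPM in MSR1 KO and 9863, 9640 and 8853 CPM in MSR1 WT libraries, with MSR1 KO replicate 3 above MSR1 WT replicate 3. Ftl1 (chr7:45457944-45459884) encodes the light chain, which helps the iron core to form, and stood at 6749, 5846 and 6537 CPM against 7354, 7537 and 6925 CPM, with no overlap between the groups. The changes were close in size, with a log2 fold change of −0.19 (SE 0.095) for Fth1 and −0.19 (SE 0.072) for Ftl1, and adjusted p values of 0.34 and 0.199 by edgeR. The MSR1 KO means were 87.8% and 87.7% of the MSR1 WT means. Together the ferritin transcripts took 1.49%, 1.30% and 1.56% of all counts in MSR1 KO libraries and 1.73%, 1.75% and 1.59% in MSR1 WT libraries, so the 3 MSR1 KO shares were the lowest of the 6.

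Ferritin genes have near-identical copies, so reads can be split between them. The 3 Ftl1 copies in the table held 0.769% to 1.74% of the summed counts of Ftl1 and its copies, and the 2 Fth1 copies at most 0.00305%. Most of the Ftl1 share was Ftl1-ps1, with 3558, 3632 and 2010 counts in MSR1 KO and 4527, 5513 and 1593 counts in MSR1 WT libraries, lowest in replicate 3 of both genotypes. With the copies added to their parent genes, both log2 fold changes remained at −0.19.

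Iron leaves the macrophage through ferroportin, encoded by Slc40a1 (chr1:45908068-45926523). Its transcript was at 417, 286 and 482 CPM in MSR1 KO and at 450, 572 and 440 CPM in MSR1 WT libraries, which made it the member with the widest range, 2.00-fold from the lowest to the highest library. MSR1 KO replicate 3 lay within the MSR1 WT range and MSR1 KO replicate 2 far below it. The log2 fold change was −0.30 (SE 0.184, 95% interval −0.73 to 0.12) with an adjusted p of 0.436 by edgeR. With single libraries left out it ran from −0.47 (without MSR1 KO replicate 3) to −0.12 (without MSR1 KO replicate 2). Cp (chr3:19957054-20009145) encodes ceruloplasmin, a copper enzyme that oxidizes iron after export. It was the member with the highest positive log2 fold change, 0.28 (SE 0.135, 95% interval −0.03 to 0.59), with an adjusted p of 0.31 by edgeR. Its levels were 168, 203 and 147 CPM in MSR1 KO and 133, 130 and 163 CPM in MSR1 WT libraries, with MSR1 WT replicate 3 above MSR1 KO replicate 3.

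Ireb2 (chr9:54863789-54912530) encodes iron-regulatory protein 2, which binds the hairpins printed above. It was at 83.5, 79.9 and 78.9 CPM in MSR1 KO and at 74.0, 79.2 and 84.9 CPM in MSR1 WT libraries. The groups overlapped fully, and the log2 fold change of 0.02 (95% interval −0.15 to 0.20) had an adjusted p of 0.91 by edgeR. The 95% intervals of Slc11a1, Slc11a2, Fth1, Ftl1 and Ireb2 lay inside the 1.5-fold limits, whereas those of Tfrc, Steap3, Hmox1, Slc40a1 and Cp reached beyond them.

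**Figure D2:**
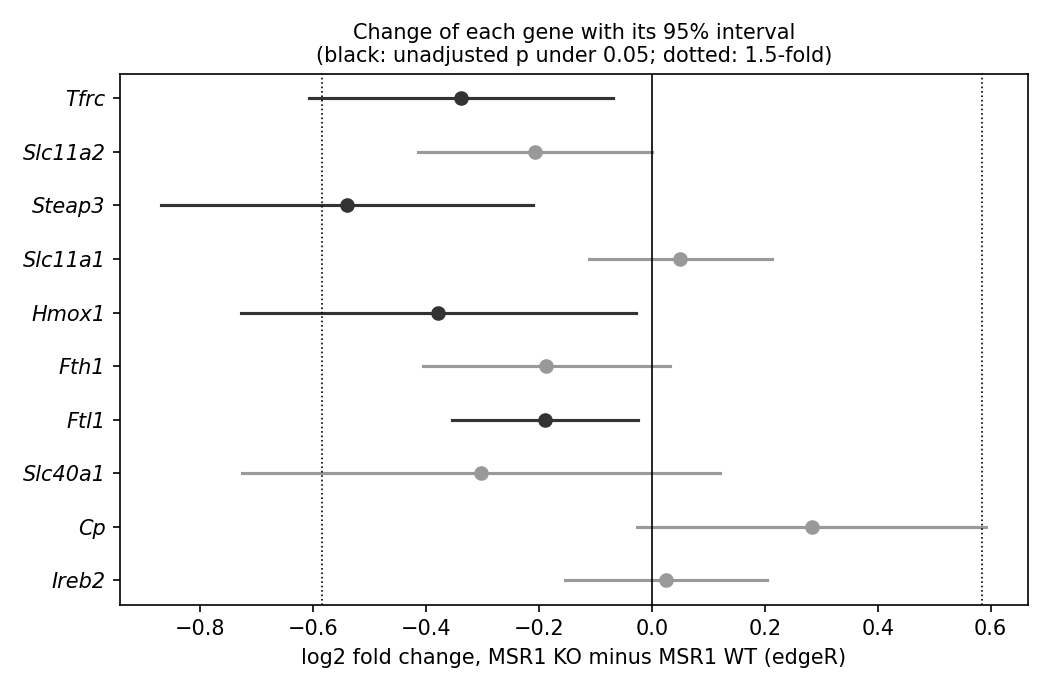
Log2 fold change (MSR1 KO minus MSR1 WT, x axis) of the 10 iron-handling genes by edgeR, with 95% intervals as lines, an unadjusted p under 0.05 in black and the 1.5-fold limits dotted. Steap3 has the lowest value (−0.54) and Cp the highest (0.28).

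The libraries did not spread evenly. MSR1 KO replicate 2 was the lowest of the 6 libraries for 6 of the 10 genes (Tfrc, Slc40a1, Fth1, Ftl1, Hmox1 and Steap3) and the highest for Cp. MSR1 WT replicate 2 was the highest for 5 of them (Tfrc, Slc40a1, Ftl1, Hmox1 and Steap3) and the lowest for Slc11a1 and Cp. The highest library exceeded the lowest 1.87-fold for Steap3 and 1.86-fold for Hmox1, but only 1.15-fold for Slc11a1 and for Ireb2. Without MSR1 KO replicate 2 the log2 fold changes of Hmox1 and Steap3 were −0.23 and −0.43, that of Fth1 was −0.10 and that of Cp was 0.15, all closer to 0 than with it.

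To compare levels between genes, CPM were divided by the length in kb of the merged protein-coding exons. The mean over the 6 libraries was 7050 CPM per kb for Ftl1 and 5486 for Fth1, then 533 for Hmox1, 218 for Slc11a1 and 127 for Slc40a1. The lower levels were 26.9 CPM per kb for Tfrc, 24.7 for Cp, 13.7 for Ireb2, 12.0 for Slc11a2 and 2.88 for Steap3. In this order, 3 neighbouring pairs had overlapping ranges, Ftl1 with Fth1, Tfrc with Cp and Ireb2 with Slc11a2. These are also the pairs whose order turned round when the length of a single GENCODE transcript was used, which put Fth1 at 9555 CPM per kb, Cp at 38.4 and Slc11a2 at 24.8. The order within these pairs therefore changed with the length taken, and the rest of the order was the same under both lengths. The order of Tfrc and Cp also differed between libraries with merged exons, with Tfrc above Cp in 3 of the 6. By genotype, the mean CPM per kb was higher for Tfrc in MSR1 WT and higher for Cp in MSR1 KO macrophages. In the other pairs the order was the same in all 6 libraries with merged exons.

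**Figure D3:**
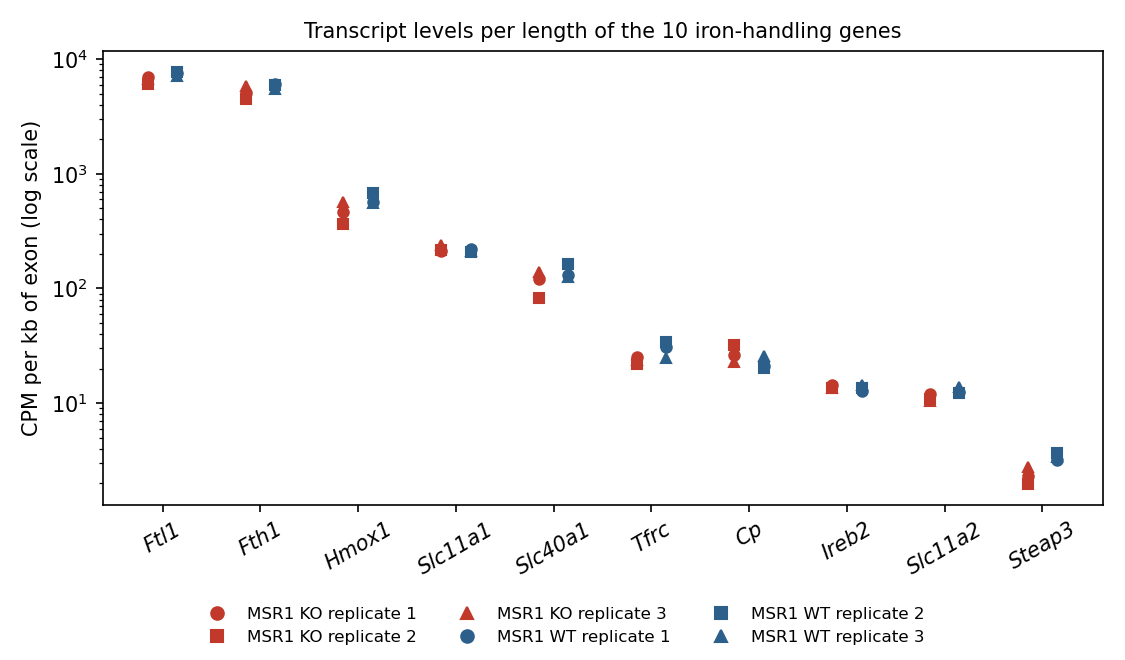
CPM per kb of exon (log scale) of the 10 iron-handling genes in each MSR1 KO and MSR1 WT library, ordered by the mean over 6 libraries. Both ferritin genes lie above the other members in every library, and Steap3 lies lowest.

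Ratios of counts within a library do not depend on library scaling. The ratio of heavy- to light-chain ferritin (Fth1 to Ftl1) was 1.22, 1.25 and 1.44 in MSR1 KO and 1.34, 1.28 and 1.28 in MSR1 WT libraries. The means were 1.30 ± 0.118 and 1.30 ± 0.0360, and the difference in the log2 ratio of −0.0022 had p = 1 in a two-sided exact permutation test, which cannot go below 0.1 with 3 libraries against 3. The ratio of uptake to storage, Tfrc to Fth1, was 0.0165, 0.0161 and 0.0133 in MSR1 KO and 0.0167, 0.0187 and 0.0150 in MSR1 WT libraries. Here the difference in the log2 ratio was −0.14 with p = 0.4 in the same exact permutation test, and the groups overlapped. It was −0.039 without MSR1 KO replicate 3 and −0.056 without MSR1 WT replicate 2.

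**Figure D4:**
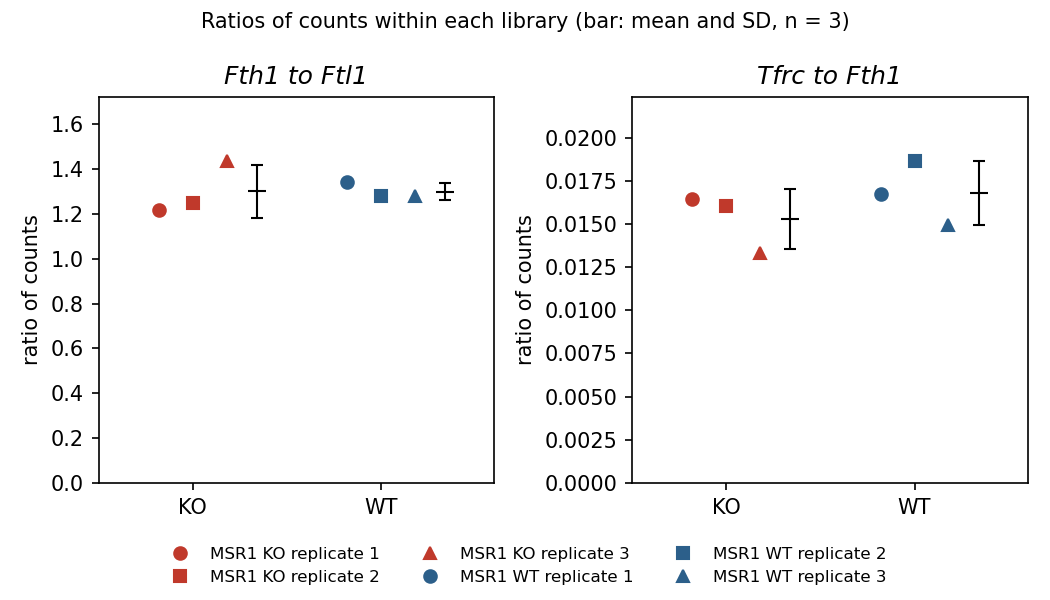
Ratios of counts of Fth1 to Ftl1 and of Tfrc to Fth1 (y axes from 0) in each MSR1 KO and MSR1 WT library, with the mean and SD of 3 libraries. MSR1 KO replicate 3 has the highest Fth1 to Ftl1 ratio (1.44) and the lowest Tfrc to Fth1 ratio (0.0133).

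Other genes of iron and heme were taken from 8 lists of 60 genes, of which 52 were tested. By edgeR's quasi-likelihood test with Benjamini-Hochberg adjustment, 2 of the 52 passed an adjusted p of 0.05, both lower in MSR1 KO macrophages, and 3 met the DEG definition, also lower, beside the 4.91% and 8.64% of all genes given above. Without MSR1 WT replicate 1 there were 6 DEGs and without MSR1 WT replicate 2 only 1. The log2 fold change was below 0 for 38 of the 52, beside 50.4% of all genes, with a median of −0.09. At an unadjusted p of 0.05, 9 were lower and 2 higher, beside 18.9% of all genes in either direction. The genes without enough reads to be tested were Flvcr2, Steap4, Ftmt, Hephl1, Hamp, Hjv, Tmprss6 and Hpx.

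Epas1 and Alas1 were the genes that fell. Epas1, which encodes the hypoxia-inducible factor HIF-2α, was at 14.3, 14.7 and 14.9 CPM in MSR1 KO and at 29.0, 27.5 and 32.7 CPM in MSR1 WT libraries. All MSR1 KO libraries lay below the MSR1 WT libraries, and the log2 fold change was −1.02 (SE 0.1002) with an adjusted p of 0.00446 by edgeR. Alas1 encodes the first enzyme of heme synthesis outside red cells, and its levels were 70.9, 70.1 and 73.2 CPM in MSR1 KO and 103, 94.0 and 110 CPM in MSR1 WT libraries. Its groups did not overlap either, and the log2 fold change was −0.52 (SE 0.081) with an adjusted p of 0.0183 by edgeR. Alas1 missed that threshold when MSR1 KO replicate 1 or MSR1 WT replicate 1 was left out. Alas1 also missed it with a block on replicate number, whereas Epas1 passed in each case. The other 2 DEGs were low in reads. Steap1, of the same family as Steap3, had 7, 24 and 18 counts in MSR1 KO and 40, 68 and 28 in MSR1 WT libraries, with a log2 fold change of −1.37 and an adjusted p of 0.202 by edgeR. Bmp6, a ligand that acts on hepcidin in the liver, had 7, 10 and 6 against 19, 35 and 25 counts, with −1.64 and an adjusted p of 0.121 by edgeR. The paper names BMP6 among pro-osteogenic cytokines that were significantly lower in its RNA-seq of MSR1 KO macrophages, and it also measured their mRNA by qPCR. The summed stromal markers were also lower in 2 of the 3 MSR1 KO libraries than in any MSR1 WT library, although single stromal markers moved both ways. The part of stromal RNA in the differences of these genes was not tested.

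By class, iron and heme uptake had the lowest median log2 fold change, −0.45, with 9 of 10 tested genes below 0 (50.4% of all genes) and 3 lower at an unadjusted p of 0.05 (18.9% of all genes in either direction). The lowest values of this class came from genes with few reads. They were Steap1 (−1.37, 7 to 68 counts per library), Slc22a17 (−0.82, 28 to 74 counts) and Tfr2 (−0.65, 16 to 60 counts). The values nearest 0 were −0.14 for Slc48a1 and 0.03 for Slc46a1. Its member with the highest CPM, the heme-hemopexin receptor gene Lrp1, had a log2 fold change of −0.23 with an adjusted p of 0.272 by edgeR. In storage and ferritin handling, the median of 3 tested genes was −0.01, with −0.03 for Pcbp2, an iron chaperone of the cytosol. Among the 3 tested export genes, the heme exporter Flvcr1 had a log2 fold change of −0.35 with an adjusted p of 0.604 by edgeR. It stood at 72.0, 29.4 and 75.4 CPM in MSR1 KO and at 70.8, 71.9 and 82.1 CPM in MSR1 WT libraries, so that MSR1 KO replicate 2 was again the library that stood low.

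Sensing and regulation had a median of −0.07 over 11 tested genes, and 5 of them had all MSR1 KO libraries below all MSR1 WT libraries, beside 25.5% of all genes that did not overlap in either direction. The regulator with the highest CPM, Nfe2l2, which encodes the oxidative-stress factor NRF2, had a log2 fold change of −0.05 with an adjusted p of 0.743 by edgeR. In heme breakdown, Blvrb, a biliverdin reductase gene, had 0.10 with an adjusted p of 0.713 by edgeR. In heme synthesis 7 of 8 genes lay below 0, with a median of −0.09. The 10 genes of mitochondrial iron and iron-sulfur clusters had a median of −0.05, and the mitochondrial iron importer Slc25a37 had 0.12 with an adjusted p of 0.614 by edgeR. Of the 4 tested carriers 2 lay above 0 and 2 below, and Trf, which encodes transferrin, had −0.09 with an adjusted p of 0.753 by edgeR.

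**Figure D5:**
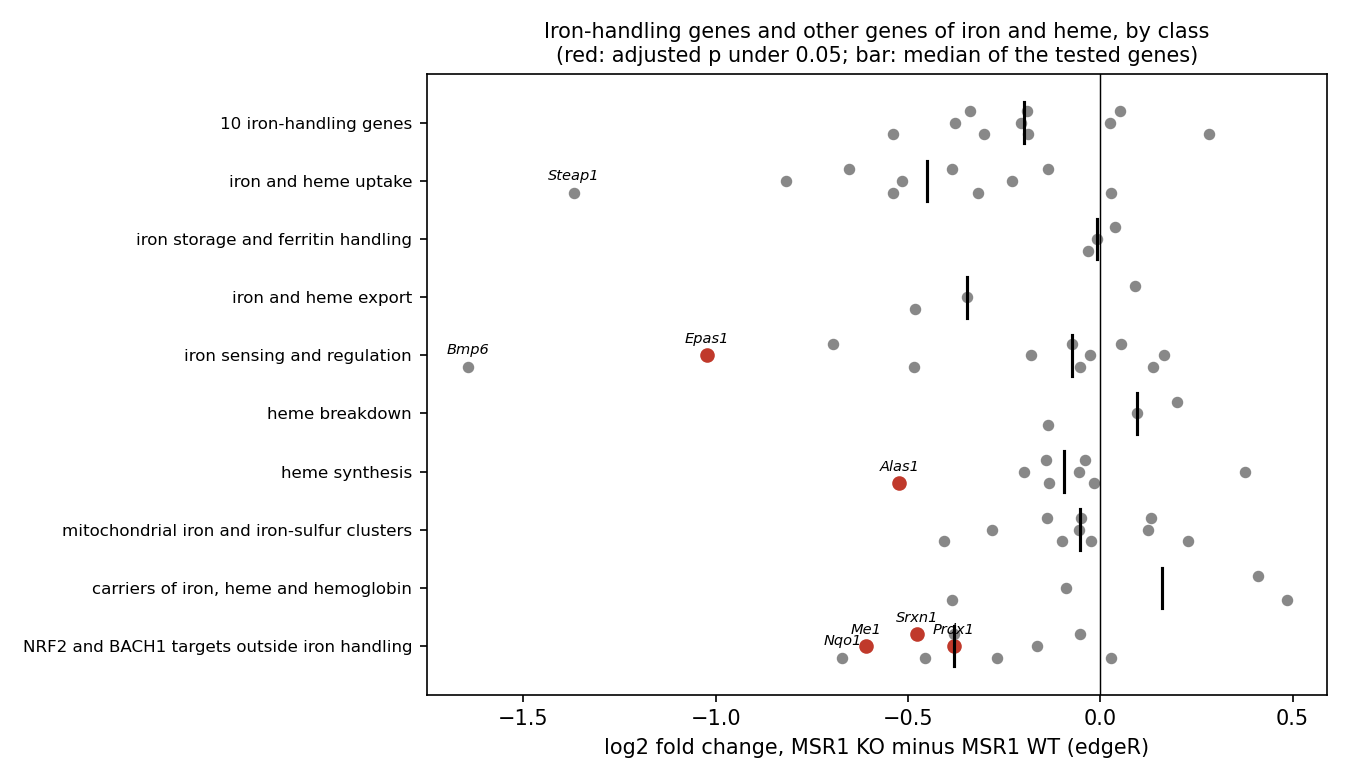
Log2 fold changes (MSR1 KO minus MSR1 WT, x axis) of the tested genes of each iron and heme class, 1 point a gene, with the class median as a bar and genes of an adjusted p under 0.05 in red. Epas1 and Alas1 are the red points among the iron and heme classes, both below 0, and the bottom line shows targets of NRF2 and BACH1.

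Among the genes whose log2 CPM followed Steap3 most closely over the 6 libraries, of 13610 tested genes with a mean of at least 1 CPM, were Fam43a (Pearson's r = 0.996), Nlrp10 (0.994), Arcn1 and Pde1c (0.993 each). The 6 points share their libraries and scaling, so these values describe likeness of pattern only. The log2 fold changes of these genes were −0.35, −0.59, −0.05 and −1.70 in that order.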

How the data were processed

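The authors prepared mRNA-seq libraries (VAHTS V2 kit, Illumina HiSeq) and deposited 1 table of raw counts per gene and library, with signal columns (counts divided by a size factor, not used in the tests) and their own log2 fold changes, p-values and adjusted p-values, which were not used. Their methods name TopHat and FPKM. The submitters' processing notes list fastp 0.17.1, HISAT2 2.1.0, DESeq2 1.18.1 and R 3.4.3. The counting program and its strand setting are not given in the sources used here, so overlapping and antisense genes cannot be told apart. The build was not named either. Positions of 49909 of 52403 matched gene identifiers equalled GENCODE M21, so GRCm38 is used for coordinates. The 37 mitochondrial genes held 0 counts. Of identifiers that shared a symbol (92 symbols), the one with the most counts was kept under it. All 125 listed genes were matched, 3 by identifier or synonym.

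Deposited counts were filtered (filterByExpr), scaled by TMM and tested with edgeR 4.0.16 (glmQLFit, glmQLFTest) in R 4.3.3, with p-values adjusted by Benjamini-Hochberg over 16402 genes. Each standard error is the log2 fold change divided by the root of its F statistic. CPM used TMM-scaled library sizes, and log2 CPM a prior count of 2. Per-length values used merged exons of protein-coding transcripts. The members, lists and tests were chosen with earlier results of these data known. Genes named beyond the 10 members were Msr1, other iron genes with an adjusted p under 0.05 or meeting the DEG definition, the member of each class with the highest CPM, and the 5 genes most like the member with the smallest p, of which 1 is not reported here. Also named were single markers chosen by their values, the iron genes without enough reads and further genes of the uptake class. Neo1 was named because it passed under some alternatives. Ftl1-ps1 and the genes of the closing section were named after their values were seen. Libraries of a group differed by more than sampling noise (chi-square per degree of freedom 26.1 to 51.9), so none was counted as the same library deposited again. The labels do not say that replicates are separate animals, and p-values measure the spread between these libraries. On simulated counts of this design, 140 of 200 genes changed 2-fold were recovered among 16031 tested, with 14 other calls.

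Alternatives were DESeq2 1.42.0 (Wald test), scaling by DESeq2 size factors or by library size alone, all genes with a total above 0, genes with 10 or more counts in each library, a block on replicate number, ferritin copies summed, and each library left out. A single transcript's length was added after seeing the data.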

Additional observations from a re-analysis of the deposited data

How the results depend on the processing

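The number of iron-handling genes with an adjusted p under 0.05 was 0 by edgeR and 1 by DESeq2 (Steap3), and 0 to 1 when each library was left out, the 1 being Tfrc without MSR1 WT replicate 3. The number that met the DEG definition was 0 to 1 when each library was left out (Steap3 without MSR1 KO replicate 3). Of the other iron genes, 1 (Epas1) in place of 2 passed with the replicate block, 3 (with Neo1) by DESeq2, with library size alone and with 10 or more counts in each library, and 1 to 2 when each library was left out, with 1 to 6 in place of 3 DEGs (6 without MSR1 WT replicate 1, 1 without MSR1 WT replicate 2). When single libraries were dropped, the log2 fold change of Slc11a1 ran from −0.00037 (without MSR1 KO replicate 3) to 0.095, that of Ireb2 from −0.023 (without MSR1 WT replicate 1) to 0.076, and the difference in the log2 Fth1 to Ftl1 ratio ran from −0.0755 to 0.0440. Library size alone put Ireb2 at −0.0070. The log2 ratio of Ftl1 to Fth1 per kb was 0.36 with merged exons and −0.44 with the length of a single transcript. The other 8 members kept their direction under every alternative. Where a cause is not shown by the construction of the alternative, the cause was not tested.

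Replicate numbers did not pair the libraries (correlations of same-numbered libraries −0.026, 0.019 and −0.0048). The block moved calls over all genes from 369 higher and 436 lower to 59 and 78, and DESeq2 gave 720 and 848. Without a filter 237 and 288 were called. With 1 library left out the share of genes called fell from 4.91% to between 0.421% and 4.63%, lowest without MSR1 WT replicate 1. Library size alone gave 314 higher and 516 lower. All 10 members changed by less than 1.5-fold, a size that was not simulated.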

Other observations

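As a further list, 10 targets of the stress factor NRF2 and of the heme-sensing repressor BACH1 outside iron handling were measured beside Hmox1, Fth1 and Ftl1, which both factors are also known to act on. All 10 were tested, 9 lay below 0 with a median log2 fold change of −0.38, and 6 had all MSR1 KO libraries below all MSR1 WT libraries, beside 25.5% of all genes that did not overlap in either direction. By edgeR's quasi-likelihood test with Benjamini-Hochberg adjustment, 3 of the 10 fell (4.91% of all genes were called). Srxn1, which encodes sulfiredoxin, was at 78.4, 75.0 and 82.9 CPM in MSR1 KO and at 113, 113 and 104 CPM in MSR1 WT libraries, with a log2 fold change of −0.48 and an adjusted p of 0.0193 by edgeR. The log2 fold change was −0.61 for Me1, the NADPH-producing malic enzyme gene (adjusted p = 0.0267 by edgeR), and −0.38 for the peroxiredoxin gene Prdx1 (adjusted p = 0.0483 by edgeR). Gclm was the member above 0, with 0.03.

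Among the carriers, 2 genes of neutrophil granules lay above 0. Lcn2, which encodes the siderophore-binding lipocalin 2, was at 88.2, 62.3 and 55.7 CPM in MSR1 KO and at 58.6, 50.9 and 37.9 CPM in MSR1 WT libraries, with a log2 fold change of 0.48 and an adjusted p of 0.244 by edgeR. Ltf, the lactoferrin gene, had 0.41 with an adjusted p of 0.391 by edgeR. Both were highest in MSR1 KO replicate 1 and lowest in MSR1 WT replicate 3, as was the summed level of the neutrophil markers, and the part of neutrophil RNA in these values was not tested.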
